A study of Saccharomyces cerevisiae with 8 samples.

Results

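YRF1-1 to YRF1-8 are the budding yeast genes named for the helicase encoded by the Y′ element, a repeat that lies next to the telomere at many chromosome ends. They were taken as the 8 gene models of the deposited count table that carry one of these names, out of 6596 models in all. Poly(A) RNA was measured in 4 WT and 4 mcd1-1 samples of Saccharomyces cerevisiae, lettered A to D in each group. Both groups were W303-1a derivatives in logarithmic phase, regrown in rich YPD medium from an OD600 of 0.2 for 2 generations at 31 °C, and WT carried the wild-type genotype. The mutant allele mcd1-1 lies in MCD1, which encodes the kleisin subunit of the cohesin ring. The labels do not state that replicates came from separate cultures, and p-values then cover only the spread among the samples given, which may be technical.

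Y′ elements are blocks of subtelomeric DNA, found singly or in tandem between the telomeric repeat tract and the X element. Genes near telomeres are subject to silencing by the Sir proteins, and cells that survive without telomerase can do so by amplifying Y′ elements through recombination. Expression of the Y′ helicase has been described in such survivors.

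The 8 YRF1 models held only 5 distinct sequences. YRF1-1, YRF1-5 and YRF1-8 were identical over their whole length, as were YRF1-3 and YRF1-7. By blastn, pairs of models matched at 99.332 to 100% identity. Over the 4146 alignment columns with a base in all 8 models, 22 columns differed between any of them. One window of 60 bases held 5 of these columns and is shown because it separates 3 of the sequence types. Capitals mark the columns that differ among the 8 models, in the R64 reference on the plus strand at chrIV:1527630-1527689 (YRF1-1), chrVII:1086513-1086572 (YRF1-3) and chrXII:1067154-1067213 (YRF1-4):
YRF1-1: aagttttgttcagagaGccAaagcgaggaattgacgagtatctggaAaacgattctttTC
YRF1-3: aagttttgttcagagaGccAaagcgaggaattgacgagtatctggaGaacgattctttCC
YRF1-4: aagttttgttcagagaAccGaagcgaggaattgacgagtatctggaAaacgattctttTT

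All 8 models also held a tandem repeat of 36-base units, with 12 whole units over 450 bp in each. The Y′ reading frame is known to contain such a minisatellite. Units 2 to 4 of YRF1-3 (R64, plus strand, chrVII:1088991-1089098) are shown as an example of this repeat, and capitals mark bases that differ from unit 2:
unit 2: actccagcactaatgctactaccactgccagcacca
unit 3: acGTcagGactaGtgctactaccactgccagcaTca
unit 4: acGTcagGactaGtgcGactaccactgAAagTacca

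No stretch of 50, 100 or 150 bases from YRF1-1, YRF1-3, YRF1-5, YRF1-6, YRF1-7 or YRF1-8 occurred only once in the R64 genome. YRF1-2 had 3.861% of its 100-base stretches at a single place and YRF1-4 had 3.111%. The median 100-base stretch of each model occurred at 11 places, and the most repeated occurred at 20. A read from a YRF1 transcript could therefore rarely be assigned to a single copy, and no source used here says how shared reads were counted. The values of single models are reported for completeness. If each read was counted once, the sum over the 8 models does not depend on how reads were split among these 8. If shared reads were counted in full at several models, the sum holds them more than once. Its level and its share of all counts would then be too high. The sum may also depend on how reads were split with Y′ models outside the 8, since the median stretch occurred at more places than there are YRF1 models.

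**Figure D1:**
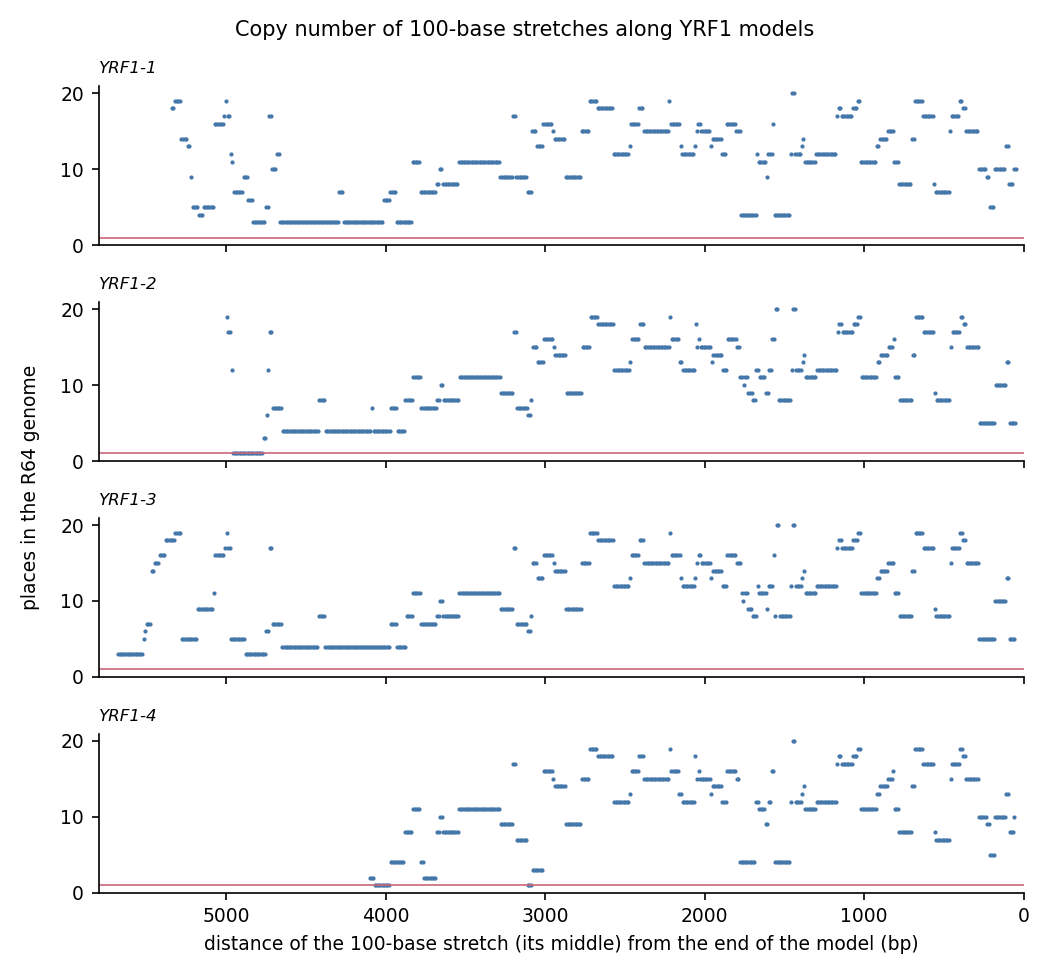
Number of places in the R64 genome (vertical axis) at which each 100-base stretch of 4 YRF1 models occurs, against the distance of the stretch from the end of the model in bp (horizontal axis). The red line marks a single place; only short stretches of YRF1-2 and YRF1-4 reach it, and the repeat number runs up to 20.

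The 8 models lay on 7 chromosomes. YRF1-1 (YDR545W, IV, 1526321 to 1531711), YRF1-2 (YER190W, V, 571480 to 576525), YRF1-3 (YGR296W, VII, 1084864 to 1090591) and YRF1-8 (YOR396W, XV, 1085473 to 1090863) lay at right ends on the plus strand. YRF1-4 (YLR466W, 1067087 to 1071235) and YRF1-5 (YLR467W, 1072508 to 1077898) lay one after the other at the right end of chromosome XII. YRF1-6 (YNL339C, XIV, 371 to 6098) and YRF1-7 (YPL283C, XVI, 280 to 6007) lay at left ends on the minus strand. These are positions in build R64, and all 8 had the same start and end in RefSeq. YRF1-4, the inner model of that pair, ended 6942 bp from the chromosome end, and the other 7 ended within 222 to 428 bp of theirs. The strains derive from W303, so the number and place of Y′ elements in the cells measured may differ from this reference and were not measured.

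The models differed mainly at their 5′ end. YRF1-3, YRF1-6 and YRF1-7 began with a first exon of 19 bp and an intron of 148 bp, and the other 5 were annotated as 1 exon. The first 207 bases of YRF1-3 (R64, plus strand, chrVII:1084864-1085070) are shown because they carry this feature, with exons in capitals:
YRF1-3 first intron: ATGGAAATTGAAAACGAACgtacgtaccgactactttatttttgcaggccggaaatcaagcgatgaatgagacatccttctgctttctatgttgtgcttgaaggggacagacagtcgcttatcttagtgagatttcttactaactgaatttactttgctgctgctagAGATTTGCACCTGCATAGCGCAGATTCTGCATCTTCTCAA

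The branch point motif TACTAAC began at base 119 of that intron in all 3 models. The start codon of YRF1-1, YRF1-5 and YRF1-8 fell at base 341 of the YRF1-3 span, and that of YRF1-2 at base 683. Because the starts differ, the 300-base windows around them (250 bases before and 50 from the start on) differed as well. The windows of YRF1-3, YRF1-6 and YRF1-7 were identical, as were those of YRF1-1, YRF1-5 and YRF1-8, while YRF1-1 and YRF1-3 had the same base at 74 of 300 positions. Fold changes of models that share reads cannot be assigned to a window. Both windows are shown because each was common to 3 models, with the start codon in capitals, from R64 on the plus strand at chrVII:1084614-1084913 and chrIV:1526071-1526370:
YRF1-3: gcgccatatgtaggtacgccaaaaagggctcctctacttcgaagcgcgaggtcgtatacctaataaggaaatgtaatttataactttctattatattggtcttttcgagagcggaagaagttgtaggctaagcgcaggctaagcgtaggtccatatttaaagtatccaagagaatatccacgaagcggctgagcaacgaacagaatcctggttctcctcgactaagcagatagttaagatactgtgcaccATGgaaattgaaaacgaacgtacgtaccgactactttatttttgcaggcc
YRF1-1: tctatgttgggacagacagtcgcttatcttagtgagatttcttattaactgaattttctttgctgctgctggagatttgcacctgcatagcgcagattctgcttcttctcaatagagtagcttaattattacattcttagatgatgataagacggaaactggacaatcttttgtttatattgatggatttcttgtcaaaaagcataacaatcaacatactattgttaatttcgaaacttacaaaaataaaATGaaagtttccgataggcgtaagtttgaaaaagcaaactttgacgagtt

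Neither strand of any of the 8 windows held ACGCGT (the MCB box of late G1 genes), CACGAAA (the SCB box), AGGGG (the stress response element) or TTAGGG (the Tbf1 motif). No pair of these motifs is the same sequence. Among 6567 windows of the same length over all models, 2.97% held ACGCGT, 4.05% CACGAAA, 21.7% AGGGG and 6.76% TTAGGG.

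The library totals were 22331070 to 58506447 counts, and 3 counts, the limit that a count of 0 allows, amounted to 0.0463 to 0.151 CPM. CPM here means counts scaled to 1e+06 per library after TMM. The TMM factors lay between 0.879 and 0.902 for WT and between 1.09 and 1.21 for mcd1-1. In both groups libraries A and B stood apart from C and D: chi-square per degree of freedom between replicates was 11.8 to 101 within these sets and 315 to 540 across them. The labels do not say what the sets are. The targeted gene MCD1 was at 80.3 ± 5.20 CPM (SD, n = 4) in WT and 312 ± 44.6 CPM in mcd1-1, and since transcripts of the mutant allele count as MCD1, this level checks no label.

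The mean RNA level of the YRF1 family was higher in mcd1-1 than in WT, while the test with group as the only term, given below, called 0 of the 8 models. The 8 models together held 2430, 2784, 6027 and 6096 CPM in WT A to D and 6814, 5414, 8743 and 8931 CPM in mcd1-1 A to D. Each mcd1-1 library was above the WT library of the same letter, and above both WT libraries of its set. So was each of the 8 models, where 35.2% of all models were higher in all 4 letters and 33.7% within both sets. The groups still overlapped, because mcd1-1 B lay below WT C and D, in the sum and in each model. Of all models, 22.1% had no overlap with mcd1-1 higher. The means were 4334 ± 2000 CPM in WT and 7476 ± 1674 CPM in mcd1-1 (SD, n = 4), a ratio of 1.72. As a share of all counts, without scaling, the family took 0.217, 0.245, 0.535 and 0.550% in WT and 0.741, 0.658, 0.954 and 0.988% in mcd1-1, so that by this measure all 4 mcd1-1 libraries were above all 4 WT libraries. Without scaling, models in general also moved up: the median log2 fold change over all models was 0.33, against -0.01 after TMM. The share of all models without overlap was not computed on the unscaled measure. RNA sums cannot tell more copies of the element from more RNA per copy, and in bulk samples fewer cells of a kind and less RNA per cell cannot be told apart.

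**Figure D2:**
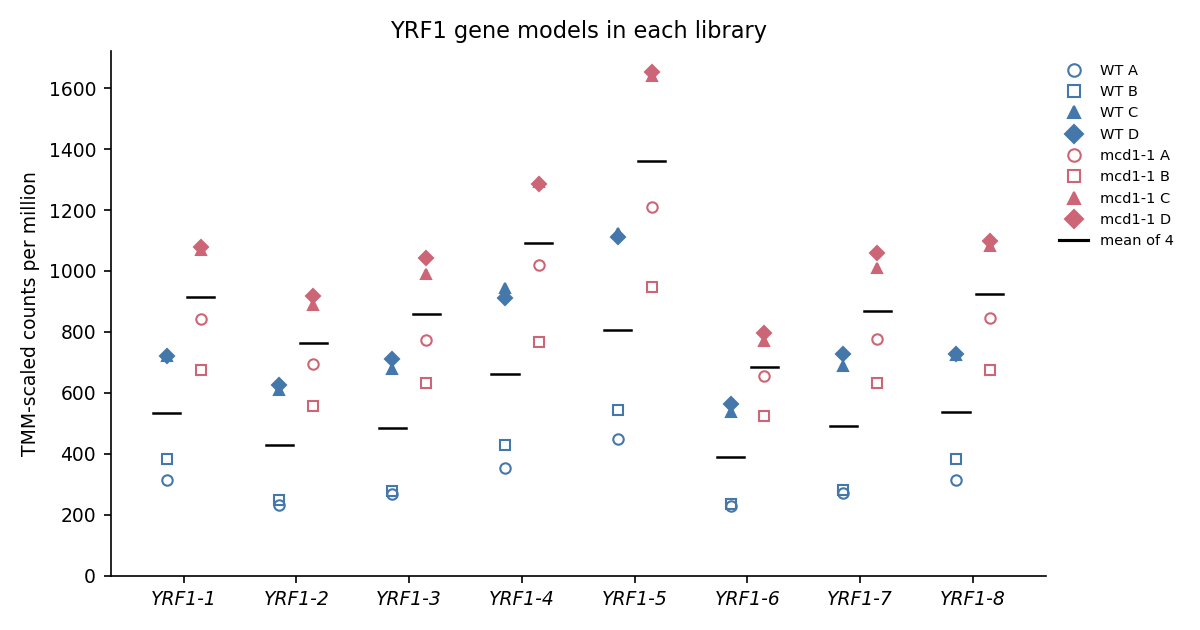
TMM-scaled CPM (vertical axis) of each YRF1 model in each of the 8 libraries, with WT in blue and mcd1-1 in red. Open symbols are libraries A and B, filled symbols C and D, and black lines are means of 4; in every model mcd1-1 is above WT letter by letter, and mcd1-1 B is below WT C and D.

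The ratio of mcd1-1 to WT varied with the set of libraries. The family sum was 2.80-fold higher in mcd1-1 for letter A, 1.94-fold for B, 1.45-fold for C and 1.47-fold for D. Within WT the C and D libraries held 2.33 times the sum of A and B, and within mcd1-1 1.45 times. The WT difference between sets was larger than most: 185 of 6558 models tested, or 2.82%, had an upward difference at least as large.

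Long models in general also differed between the sets. Among 192 models outside the Y′ lists with a span of at least 4000 bp, the median log2 difference of C and D from A and B in WT was 0.96, against -0.07 for 6296 shorter models and 1.24 for the 8 YRF1 models, whose spans begin at 4149 bp. In mcd1-1 these medians were 0.64, -0.02 and 0.54. A WT difference at least as large as that of the YRF1 sum was seen in 44 (22.9%) of the long models. It was seen in 1.83% of the shorter models and in 5 of the 8 YRF1 models. The long models had a median log2 fold change of mcd1-1 over WT of 0.39 within A and B and 0.11 within C and D, where the YRF1 models had 1.26 and 0.59. Whether model length has a part in the difference between the sets was not tested.

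Gene by gene, edgeR's quasi-likelihood test with group as the only term called 0 of the 8 YRF1 models, with adjusted p-values (Benjamini and Hochberg, over all models tested) from 0.068 to 0.122. In that fit 20.7% of all models were called higher and 19.7% lower. At an unadjusted p under 0.05 there were 6 of 8, where 25.7% of all models were higher. DESeq2 called 5 (23.2% of all models higher) and limma-voom 0 (20.8%), while edgeR with upper-quartile scaling called 7 (26.5%) and with library sizes only 8 (37.5%). The log2 fold changes were alike in the 8 models, from 0.72 to 0.83 with a median of 0.80, against a median of -0.01 over all models. With the replicate letter as a block, all 8 rose, with log2 fold changes from 0.82 to 0.96 and adjusted p-values from 0.0054 to 0.012. The background then was 29.4% higher and 30.2% lower, and among the 348 models of at least 500 mean CPM 8.33% were higher with the block and 2.3% without it. These 348 include the 8 YRF1 models themselves and the Y′ models YLL067C, YLL066C and YJL225C, all called higher with the block. Of the 192 models of at least 4000 bp outside the Y′ lists, 79 (41.1%) were higher with the block. With the sets A and B against C and D in place of the letter, all 8 rose as well, where 33.7% of all models were higher and 34.2% lower. The common biological coefficient of variation was 0.253 without the block and 0.161 with it.

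Within each set the family rose as well. Libraries A and B alone gave log2 fold changes of 1.12 to 1.38 and called all 8 models, where 34.8% of all models were called higher and 32.9% lower. Libraries C and D alone gave 0.51 to 0.63 and also called all 8, where 38.8% were called higher and 37.1% lower. The difference between the sets was itself tested in edgeR as an interaction term. It passed for YRF1-2, YRF1-3, YRF1-4, YRF1-6 and YRF1-7, whose fold changes were smaller in C and D by 0.71 to 0.83 on the log2 scale (adjusted p from 0.0068 to 0.036). It did not pass for YRF1-1 (adjusted p = 0.064), YRF1-5 (0.074) and YRF1-8 (0.065). Of all models, 36.7% passed this test and 18.9% with the larger fold change in A and B.

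**Figure D3:**
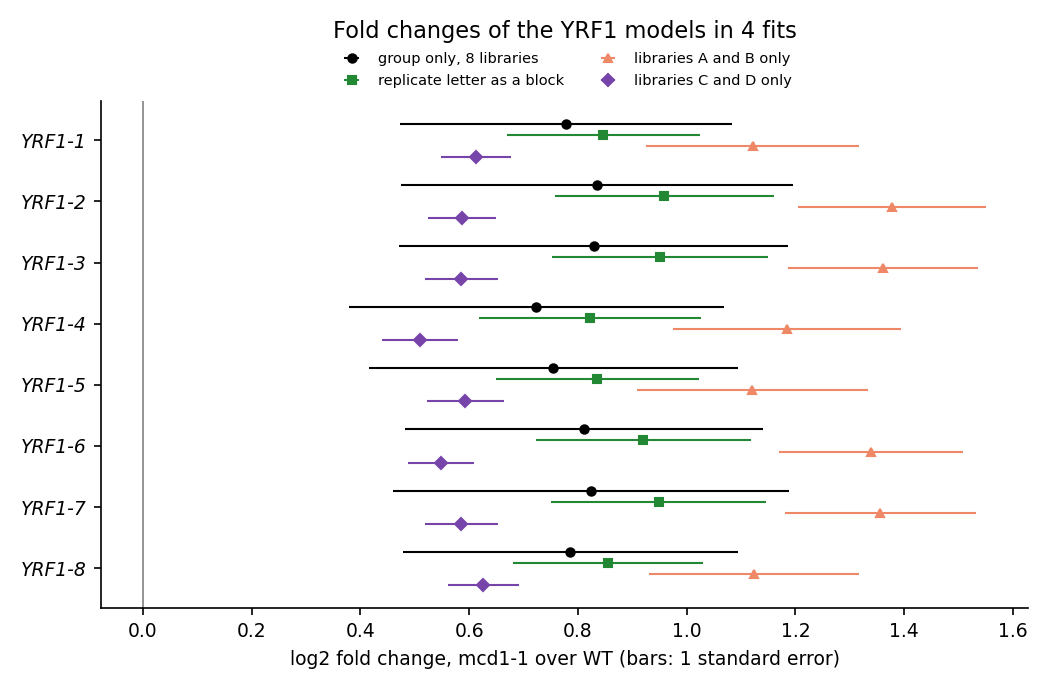
Log2 fold change of mcd1-1 over WT (horizontal axis; bars are 1 standard error) for the 8 YRF1 models in 4 edgeR fits. The group-only fit lies near 0.8 with wide bars, libraries A and B alone give 1.12 to 1.38 and libraries C and D alone 0.51 to 0.63, and every estimate is above 0.

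The 3 models with an intron were close to each other. YRF1-3 held 268, 279, 677 and 710 CPM in WT A to D and 774, 633, 989 and 1041 CPM in mcd1-1 A to D. The fitted log2 difference was 0.83 ± 0.36 (SE; edgeR adjusted p = 0.092), or 0.95 ± 0.20 with the letter block (adjusted p = 0.0058). In WT the A and B libraries were well below C and D, and all 4 mcd1-1 libraries were above WT A and B. YRF1-7, with the same sequence, held 270, 280, 690 and 726 CPM in WT and 776, 633, 1011 and 1060 CPM in mcd1-1. The counts of this pair differed by 1 to 43 in the A and B libraries, where the square root of their summed counts was 103 to 205. In the C and D libraries they differed by 318 to 1206, more than the square roots there of 190 to 369, with a ratio of 1.02 in each. With the same sequence in both models, their values cannot be read as separate measurements. YRF1-6 was the lowest of the family, at 229, 236, 536 and 562 CPM in WT and 654, 525, 770 and 796 CPM in mcd1-1. The overlap of its groups came from mcd1-1 B, which lay below WT C and D.

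Among the models that start inside the YRF1-3 span, YRF1-1 held 313, 384, 719 and 721 CPM in WT and 843, 673, 1067 and 1080 CPM in mcd1-1. The fitted log2 difference was 0.78 ± 0.31 (edgeR adjusted p = 0.068), or 0.85 ± 0.18 with the letter block (adjusted p = 0.0059). YRF1-8, of the same sequence, held 315, 382, 723 and 727 CPM in WT and 844, 676, 1083 and 1099 CPM in mcd1-1. These copies had nearly the same value in every library, with the same low A and B libraries in WT. YRF1-5 has that sequence too, but held 447, 544, 1126 and 1113 CPM in WT and 1209, 948, 1641 and 1652 CPM in mcd1-1. Its counts were 1.41 to 1.57 times those of YRF1-1 in the 8 libraries, and the source of this excess was not tested. YRF1-2 held 233, 249, 609 and 624 CPM in WT and 695, 558, 889 and 918 CPM in mcd1-1. With the block its log2 fold change, 0.96 ± 0.20 (edgeR adjusted p = 0.0060), was the highest of the 8 and within 1 SE of the others.

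YRF1-4, the inner copy of chromosome XII and the shortest model, held 355, 430, 946 and 912 CPM in WT and 1020, 766, 1293 and 1285 CPM in mcd1-1. The fitted log2 difference was 0.72 ± 0.35 (edgeR adjusted p = 0.122), or 0.82 ± 0.20 with the block (adjusted p = 0.012). This was the lowest estimate of the family, and mcd1-1 B again fell below WT C and D.

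Per kilobase of coding sequence, the models were counted at different levels, which are levels as counted and not levels of single copies, because reads are shared. In WT YRF1-4 and YRF1-5 stood at 159 ± 75.1 and 150 ± 67.2 CPM per kb (SD, n = 4). YRF1-8 (99.6 ± 40.7) and YRF1-1 (99.1 ± 40.2) followed, then YRF1-7 (88.1 ± 44.9), YRF1-3 (86.7 ± 43.5), YRF1-2 (85.0 ± 43.1) and YRF1-6 (70.1 ± 32.8). In mcd1-1 the levels were 263 ± 60.4 CPM per kb for YRF1-4, 253 ± 63.9 for YRF1-5 and 123 ± 22.2 for YRF1-6, with the other 5 at 152 to 172. These SDs include the difference between the sets that all models share, and within libraries the order was steadier. YRF1-5 was 1.40 to 1.56 times YRF1-8 per kb in the 8 libraries although the sequences are the same. YRF1-4 was above YRF1-5 in 8 of 8 libraries, by a ratio of 1.01 to 1.10, and YRF1-2 above YRF1-6 in 8 of 8, by 1.12 to 1.28. YRF1-8 and YRF1-1 did not differ beyond a ratio of 0.995 to 1.02. The share of the family total taken by each copy hardly moved between libraries, from 17.5 to 19.5% for YRF1-5, 14.2 to 15.7% for YRF1-4 and 8.48 to 9.69% for YRF1-6. Over all models tested, 15.6% were at or above YRF1-4 per kb of span and 34.5% at or above YRF1-6.

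Each YRF1 model overlapped 1 to 3 small models, and no source used here gives the strand setting, so reads of overlapping models cannot be told apart. Other models inside Y′ elements, mostly unnamed copies and fragments of the same frame, were read beside them. Of 61 such models listed, 60 were tested, and 25 rose and 0 fell with group as the only term in edgeR. With the letter block 59 rose. Over all models the shares higher were 20.7% and 29.4%. Most of the listed models match a YRF1 sequence by blastn. They may share reads with the YRF1 models and with each other, so their calls are not independent observations. Their median log2 fold change was 0.80, or 0.89 with the block. Their sum went from 6109 ± 2622 CPM in WT to 10002 ± 1440 CPM in mcd1-1 (SD, n = 4), a ratio of 1.64. The calls without the block sat among the less abundant models, with 7 of 8 under 10 mean CPM, 17 of 24 from 10 to 100 and 1 of 28 at 100 and over. The 7 called under 10 mean CPM, with log2 fold changes of 1.89 to 4.12, did not match a YRF1 sequence by blastn. Some of them are shorter than the 300 bp that a match required. The calls at higher levels held models with and without a match, so the 25 calls are not all of helicase copies. Another 2 models that match a YRF1 sequence, YDR545C-A and YLR467C-A, were not called without the block and rose with it.

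Of the Y′ models with the highest levels, YLL067C held 251, 303, 641 and 652 CPM in WT and 692, 550, 826 and 840 CPM in mcd1-1, with a log2 fold change of 0.65 ± 0.33 (edgeR adjusted p = 0.141; 0.76 ± 0.21 and 0.016 with the block). YJL225C held 268, 315, 552 and 592 CPM in WT and 595, 518, 710 and 706 CPM in mcd1-1 (0.55 ± 0.27, edgeR adjusted p = 0.135, and 0.018 with the block). In each, mcd1-1 B lay below WT D. YLL066C (0.69), YPR204W (0.77), YML133C (0.76), YIL177C (0.59), YHL050C (0.62) and YEL077C (0.66 log2) were not called without the block and rose with it.

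**Figure D4:**
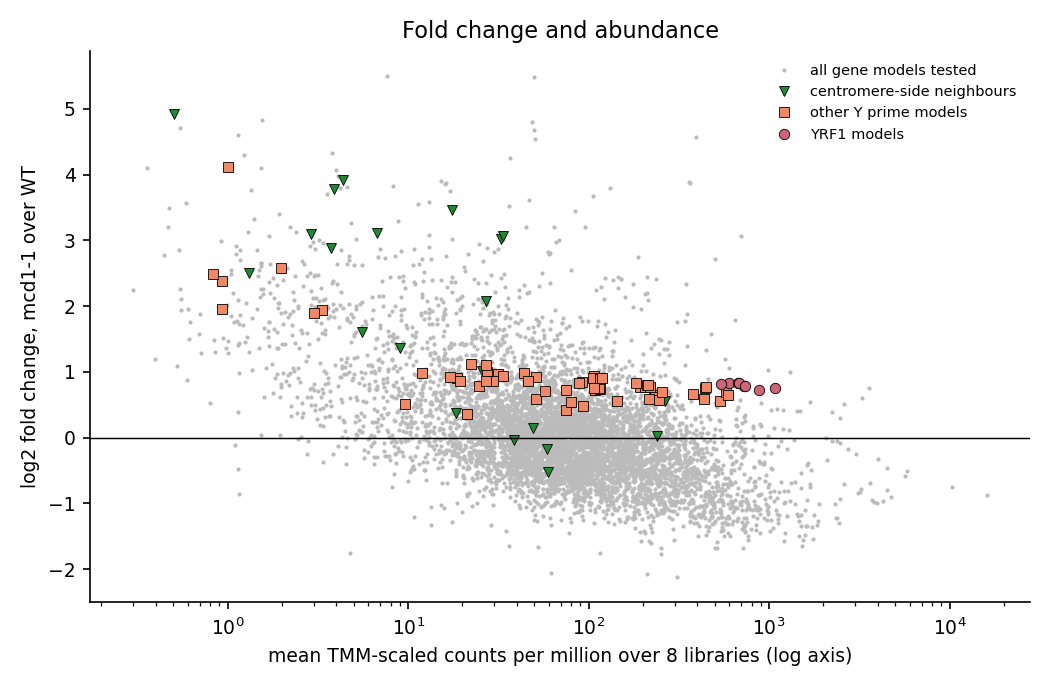
Log2 fold change of mcd1-1 over WT (vertical axis, group-only edgeR fit) against mean TMM-scaled CPM on a log axis, for all models tested (grey), the YRF1 models (red circles), the other Y′ models (orange squares) and the nearest models toward the centromere (green triangles). The YRF1 models lie between 0.72 and 0.83 at mean levels of 539 to 1085 CPM.

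The genes next to the YRF1 copies on the centromere side differed widely among themselves. The 3 nearest models outside the Y′ lists made 21 in all, since YRF1-4 and YRF1-5 share theirs. Of these 15 rose, 1 fell and 5 were not called in edgeR, both with and without the letter block, with a median log2 fold change of 2.08. Over all models 20.7% were higher and 19.7% lower without the block, and 29.4% and 30.2% with it. ERR1, an enolase-related gene beside YRF1-8, held 6.13, 6.62, 7.69 and 8.15 CPM in WT and 56.6, 77.5, 52.9 and 52.7 CPM in mcd1-1 (3.06 ± 0.18). ERR2, beside YRF1-7, held 6.68 to 7.32 CPM in WT and 46.5 to 78.8 CPM in mcd1-1 (3.02 ± 0.19). The groups were far apart in both.

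HSP32, a member of the Hsp31 family beside YRF1-7, held 2.69 to 3.11 CPM in WT and 24.3 to 40.5 CPM in mcd1-1 (3.46 ± 0.20). DDI3, a cyanamide-inducible gene beside YRF1-6, held 9.55 to 11.3 CPM in WT and 37.8 to 52.2 CPM in mcd1-1 (2.08 ± 0.14). The seripauperin genes PAU10, PAU12, PAU4, PAU21 and PAU22, members of a large subtelomeric family with similar copies, also rose. PAU12, which lies beside YRF1-3 and overlaps the model YGR293C, held 0.877 to 1.96 CPM in WT and 10.3 to 14.8 CPM in mcd1-1. PAU21 and PAU22 were at 0.100 to 0.802 and 0.100 to 0.652 CPM in WT, under 3 counts in WT A, and at 6.27 to 11.7 and 5.67 to 10.4 CPM in mcd1-1. ERR1 and ERR2, and DDI3 with a gene elsewhere, are near-identical copies whose reads may be shared. Because of such copies, the 15 neighbours called higher are not all independent observations.

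Not every neighbour rose. COS1, beside YRF1-6, was at 162 to 306 CPM in WT and 186 to 319 CPM in mcd1-1 and was not called, nor were YDR541C, IRC4, PUG1 and GAB1. COS6, beside YRF1-3, was called higher (0.56 ± 0.19, edgeR adjusted p = 0.045), but not under RLE scaling (0.053) or without WT C (0.109), WT D (0.103), mcd1-1 A (0.053), B (0.068) or C (0.058). YER186C, beside YRF1-2, was called lower (-0.53 ± 0.16, edgeR adjusted p = 0.026). That call was lost under upper-quartile scaling (0.123), under library size alone (0.433) and without WT A (0.068), WT B (0.065), mcd1-1 A (0.070), C (0.078) or D (0.057).

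**Figure D5:**
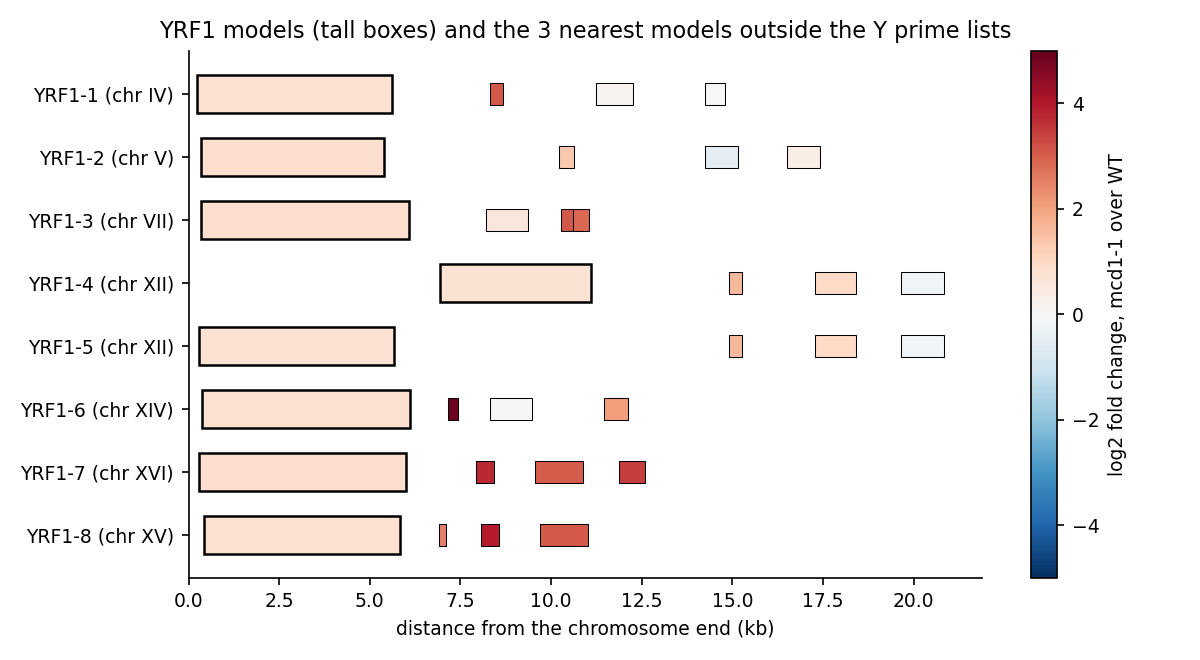
YRF1 models (tall boxes) and the 3 nearest models outside the Y′ lists toward the centromere (short boxes), by distance from the chromosome end in kb, coloured by the log2 fold change of mcd1-1 over WT in the group-only edgeR fit. The YRF1 models, which share reads, lie at 0.72 to 0.83, and their neighbours range from -0.53 upward.

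Of 24 genes for telomerase, telomere capping, silencing and recombination at chromosome ends, 6 rose and 2 fell in edgeR, or 9 and 3 with the letter block, with a median log2 fold change of 0.22 against -0.01 over all models. Over all models 20.7% were higher and 19.7% lower, or 29.4% and 30.2% with the block, so the share that rose was near the background. EST2, the telomerase reverse transcriptase, held 21.6 to 23.7 CPM in WT and 36.9 to 54.5 CPM in mcd1-1 (0.90 ± 0.15, edgeR adjusted p = 0.0016). CDC13, which binds the single-stranded telomere end, rose by 0.70 ± 0.18 (edgeR adjusted p = 0.013). SGS1, a RecQ helicase, rose from 34.3 to 76.3 CPM in WT to 94.3 to 115 CPM in mcd1-1 (0.97 ± 0.26, edgeR adjusted p = 0.017). EST3, a telomerase subunit, held 24.7 to 45.3 CPM in WT and 14.7 to 20.2 CPM in mcd1-1 (-0.90 ± 0.22, edgeR adjusted p = 0.0099), a call lost under library size alone (0.069). The silencing genes SIR2 (-0.36 ± 0.23), SIR3 (0.29 ± 0.25) and SIR4 (0.22 ± 0.16) were not called without the block. With it SIR2 fell (edgeR adjusted p = 0.025) and SIR3 rose (0.043).

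Y′ transcripts are known to vary through the cell cycle, and genes of the late G1 factors MBF and SBF were therefore set beside it. Of 18 such genes 3 rose and 2 fell, or 6 and 6 with the letter block, with a median log2 fold change of -0.04. These counts lie near the shares over all models, 20.7% higher and 19.7% lower, or 29.4% and 30.2% with the block. MCD1 itself is in that list. CLB6, an S-phase cyclin, rose by 0.68 ± 0.19 (edgeR adjusted p = 0.017). It was not called in libraries A and B alone (0.102) or in the letter block without letter B (0.083). CLN1, a G1 cyclin, fell by 0.66 on the log2 scale, from 67.5 to 93.9 CPM in WT to 46.1 to 58.7 CPM in mcd1-1 (edgeR adjusted p = 0.0060), though not under library size alone (0.086). TOS4, a forkhead protein of late G1, was called lower (-0.41 ± 0.10, edgeR adjusted p = 0.012), but not under upper-quartile scaling (0.098), under library size alone (0.628) or without mcd1-1 D (0.053).

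The models outside the Y′ lists whose pattern over the 8 libraries was most like the family sum were found by the root mean square difference of centred log2 values. SCH9, a nutrient-responsive protein kinase, was nearest at 0.12, followed by PMD1 (0.12), SEN1, an RNA and DNA helicase (0.13), DAN4, a cell wall mannoprotein (0.13), and YCL021W-A (0.13). The YRF1 models lay at 0.046 to 0.073 from their own sum. SCH9 held 62.0, 73.2, 171 and 176 CPM in WT and 161, 156, 215 and 211 CPM in mcd1-1. In all 5 the A and B libraries of WT were the lowest.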

How the data were processed

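The authors deposited raw counts of reads per gene model. Per the submitters' processing notes, the tools were STAR 2.5.3a, featureCounts 1.6.0, Picard, Trim Galore 0.4.3 and bcl2fastq 2.9 with build R64. No source used here gives the treatment of shared reads or of strand. Models passing filterByExpr (6558 of 6596, all 8 YRF1 models among them) were TMM-scaled and tested in edgeR 4.0.16 by the 2-sided quasi-likelihood F test with group as the only term, at an adjusted p threshold of 0.05. DESeq2 1.42.0, limma 3.58.1 (voom), other scalings and filters, blocks, and fits without a library were alternatives. The edgeR fits with and without the letter block were run on simulated counts. These had no effect of set or letter and no shared reads, so they cannot show how the fits handle such features.

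Deviations from the group means of the same letter in both groups correlated at 0.622, 0.447, 0.642 and 0.605. The letters were taken as paired in the letter block, which is an assumption that no label states. Other letters of the same set correlated at 0.487 to 0.675. The letter block is printed where it changes a call.

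Sequences come from the R64 RefSeq genome. The other Y′ models came from a fixed list, with matches by blastn (90% identity over 300 bp) added. Named from the lists were the Y′ models of highest mean level, the nearest neighbours, the 4 smallest p-values of the telomere and late G1 lists, and the 5 most alike models of at least 10 mean CPM (pseudocount 0.5 CPM). SIR2, SIR3 and SIR4 were named after their values were seen. Members and lists were chosen with earlier results of these data known. The floors cover counting error only. SDs are over the 4 libraries of a group, and SEs come from the fit and include the spread among libraries.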

Additional observations from a re-analysis of the deposited data

Results flagged for a closer look

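For 5 YRF1 models the fold change differed between libraries A and B and libraries C and D by a test of the interaction. The log2 fold change in C and D minus that in A and B was -0.83 for YRF1-2, -0.81 for YRF1-3, -0.71 for YRF1-4, -0.83 for YRF1-6 and -0.81 for YRF1-7, and 36.7% of all models passed the same test.

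In 102 groups of 4 libraries screened, 5 values stood far from the other 3 of their group. Chance gives this for about 1 in 20 groups, so 5 is near the number that chance gives. Among the neighbours, YNL337W was at 0.133 CPM in WT B, which is 3 counts and cannot be told from the 0 of the other WT libraries, PAU22 was at 0.100 CPM in WT A, ERR2 was at 6.68 CPM in WT A, and ERR1 was at 77.5 CPM in mcd1-1 B. MCD1 was at 378 CPM in mcd1-1 A.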

How the results depend on the processing

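All YRF1 log2 fold changes stayed positive under every setting run. Without a block 0 of 8 models were called under TMM, RLE scaling, limma-voom, no low-count filter or a filter of 10 CPM in 4 libraries, but 7 under upper-quartile scaling, 8 under library size alone and 5 with DESeq2. The median of all models moved to 0.13 and 0.33 (log2) in these first 2 scalings, where the YRF1 median was 0.94 and 1.13 and where 65.5% and 81.7% of called models were higher, against 51.3% in the fit reported. The replicate block called 8, also without any one letter, as did the set block (A and B against C and D), libraries A and B only and libraries C and D only. Without letters A, B, C and D the block called 1655 of 6558, 1520 of 6560, 1883 of 6562 and 2003 of 6562 models higher over all models. Leaving out 1 library without a block gave 0 to 6 calls, 2 without WT C and 6 without WT D. Over all models 1163 to 1373 were higher in these fits, with 1244 of 6566 without WT C and 1290 of 6566 without WT D. The other Y′ models called higher, 25 in the fit reported, numbered 45 under upper-quartile scaling, 58 under library size alone, 35 with DESeq2, 59 with the replicate block or the set block, 59 with libraries A and B only and 60 with C and D only. Leaving out 1 library gave 22 to 37 (36 without WT C and 37 without WT D), and the replicate block gave 49, 27, 58 and 58 without letters A, B, C and D. The log2 ratio of the family sums was 0.59 to 1.00 without 1 library. Why the calls moved was not tested. Shared reads limit statements on single copies at any depth. The replicate block without a letter, the test of the difference between the sets and the comparison with long models were chosen after seeing the data.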
